A study of Mus musculus with 6 samples.

Results

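Distal open-chromatin regions that carry a listed match to the motif of Meis1 or Meis2 were followed between nephron progenitors of the embryonic and the newborn mouse kidney. A region was taken as distal where the deposited table gave it no promoter entry, and as a Meis region where at least 1 of its listed motif names began with Meis. This left 1991 of 43523 distinct regions, or 6.77% of the 29426 distal regions. A name beginning with Fox stood in the same region in 648 of them, and 1343 had no Fox name. The rule reads position and motif annotation and no counts, though it was set with earlier results of these data known.

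Meis1 and Meis2 are homeodomain proteins of the TALE class, which bind DNA together with Pbx proteins and, in many tissues, with Hox proteins. In the developing kidney Meis1 is best known as a factor of the stroma, the mesenchyme that surrounds the nephron progenitors. Forkhead (Fox) proteins form a large family with a shared winged-helix fold. Several of them, the Foxa proteins among them, can bind sites in closed chromatin, and Foxd1 marks the renal stroma. A motif match shows only that the letters of a site are present, not that a protein was bound there.

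Accessibility was measured by ATAC-seq. The assay uses the Tn5 transposase to tag DNA where chromatin is open, and a region's count rises with its openness. Both groups were CD1 mice, an outbred strain, at embryonic stage E14.5 or at P0, the day of birth, with 3 libraries each and no treatment named in the labels. Each library came from the pooled kidneys (up to 24) of 1 litter, and cells were selected on beads with antibodies against Itga8, an integrin on the surface of nephron progenitors. Whatever other cells the beads carried along entered the library too. The comparison asks which of these regions open or close in the progenitors between midgestation and birth. A lower count can mean fewer cells with the region open or less open chromatin per cell, and these cannot be told apart in pooled cells.

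Counts in all regions totalled 6492996 to 12292629 per library, and the median Meis region held 94 to 161 counts per library. All 1991 Meis regions passed the filter on low counts, and 4 had under 10 counts in some library. At markers of other cell types, 0 of 28 regions at stromal genes, 0 of 12 at ureteric genes and 0 of 13 at immune genes passed the test described below, and 1 of 20 at endothelial genes (Cdh5) rose. The test passed 4.73% of all regions, so counts near 0 in lists this short are close to that background. The summed level at stromal markers was 529 to 581 CPM (counts divided by the scaled library total) at E14.5 and 549.8 to 646 at P0, and that at endothelial markers was 350.2 to 367 at E14.5 and 331 to 345 at P0, without overlap. Of 19 regions at nephron progenitor markers, 0 rose and 2 fell (at Eya1 and Itga8). The part of other cell types in the results was not tested.

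Many of the Meis matches read took one of a few recognisable forms, which are shown here as examples. The regions were defined by the listed name and not by these forms. Sequence was read where a match fell inside a RefSeq window around a transcription start (assembly GRCm38.p6, the mm10 build), which held for 82 Meis matches in all regions and 8 in the Meis regions; these 8 regions lay at starts of mostly predicted genes that the deposited table did not enter as promoters. Of the 59 Meis1 matches read, 30 (50.8%) contained TGACAG, the core known for Meis proteins, always from base 6 of the 14 bases of the match. Another 13 (22.0%) contained TGATNNAT, a form known for paired Pbx and Hox proteins, and 16 contained neither. Of the 23 Meis2 matches, 12 (52.2%) contained TGACAG, 0 contained TGATNNAT and the rest contained neither. Of 32851 promoter windows of 300 bases, 19.2% held TGACAG on either strand and 8.85% held TGATNNAT. These windows are longer than a match and were read on both strands. The matches were also listed by their score for a Meis motif, so the shares cannot be compared directly.

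The first set shows TGACAG, in capitals, within 30 bases around the match, 5′ to 3′ on the strand given.
Meis1 match at Arhgap29, chr3:121967663-121967692, plus strand: gaccagaagctgcTGACAGactaccacacc
Meis1 match at Gm38397, chr13:110903290-110903319, minus strand: tttttcaggctgcTGACAGtaaatatttct
Meis1 match at Gm46074, chr8:20649317-20649346, plus strand: ccacttgtgctgcTGACAGcagggctcctg
Meis2 match at Gm40513, chr9:41890556-41890585, plus strand: ggagacgtttTGACAGctgtatacagtccc

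The second set shows Meis1 matches of the other form, with TGATNNAT in capitals. The regions at Gm20597 and Ppfibp2 also carried Fox names.
Meis1 match at Gm20597, chr10:53519034-53519063, plus strand: acaatgctgtTGATTTATttcctttatatt
Meis1 match at Ppfibp2, chr7:107691747-107691776, plus strand: ccagagtgcaTGATTGATggtcctatccca
Meis1 match at Gm32420, chr13:21222491-21222520, minus strand: ttgtcatttaTGATGTATgtcgaataccgt
Meis1 match at Gm35551, chr17:84044685-84044714, minus strand: ggcagcagaaTGATGGATgggctgtggtgg

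At Gm20597 the Meis1 match and a listed Foxj3 match were partly the same letters, and the 12 shared bases are in capitals below. This is the arrangement found in 84 Meis regions, where a Fox match overlapped the Meis match.
Shared Meis1 and Foxj3 bases at Gm20597, chr10:53519039-53519055, plus strand: gctGTTGATTTATTTcc

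None of these 8 regions passed the test between the stages, which 7.58% of all Meis regions did. The region at Gm40513 (chr9:41889845-41891606), which overlaps a VISTA element tested as an enhancer, came to 13.6, 16.5 and 15.3 CPM at E14.5 and to 20.8, 21.5 and 24.2 CPM at P0. Its libraries did not overlap, and its log2 difference of 0.55 missed the threshold (edgeR adjusted p = 0.127).

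In the whole set, Meis1 had 1732 listed matches and Meis2 had 421. A single region had up to 7 Meis matches, and 135 regions had more than 1. The Meis1 name stood alone in 1594 regions, the Meis2 name alone in 332, and both stood in 65, of which 36 had overlapping Meis1 and Meis2 matches. The lowest listed match score was 12, so matches below it are not in the table. Meis matches lay nearer the middle of their region than an even placement would give, at a median of 17.2% of the region's length from it where even placement gives 25%. Among 7 other names measured the same way, Six2 matches lay nearer the middle than that, and the other 6 lay at 17.7% (Sall1) to 19.2% (Sox9). Meis names were listed in 6.77% of distal regions and in 2.74% of the 14097 promoter regions. The Meis regions were longer than distal regions as a whole (median 1715 against 1477 bases), and a longer region has more room for a match.

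Fox names stood in 32.5% of the Meis regions and in 23.1% of the other distal regions. Among regions of 500 to 2000 bases, the shares were 27.6% and 20.6%. The Fox names found most often beside Meis were Foxj2 (172 regions), Foxj3 (165) and Foxl2 (133). The motifs of Fox proteins resemble one another, so a Fox name does not tell which protein could bind. Where both families were listed, the median gap between the nearest Meis and Fox matches was 147 bases.

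More Meis regions closed than opened between E14.5 and P0. Each region was tested with edgeR's quasi-likelihood test on its counts, with p-values adjusted by Benjamini-Hochberg over all 43523 regions, and it passed where the adjusted p was below 0.05. Of the 1991 Meis regions 151 passed (7.58%), against 4.73% of all regions and 6.59% of all distal regions. A total of 120 were lower at P0 (6.03%, where all regions had 2.94% and all distal regions 4.13%). Only 31 were higher (1.56%, where all regions had 1.79% and all distal regions 2.46%). Called or not, 583 Meis regions (29.3%) had no overlap of the 2 stages, near the 27.8% of all distal regions and above the 24.2% of all regions. All P0 libraries lay below all E14.5 libraries in 15.8% of the Meis and 12.6% of all distal regions, and above them in 13.5% and 15.3%. An unadjusted p below 0.05 was found in 510 Meis regions (25.6%, against 23.5% of all distal regions and 18.7% of all regions). The median log2 difference (P0 minus E14.5) was 0.07 over the Meis regions, 0.10 over all distal regions and 0.01 over all regions. The quartiles were -0.25 and 0.35 over the Meis regions and -0.20 and 0.38 over all distal regions. Some of these counts rested on single libraries. The 151 became 36 without E14.5 replicate 3, or 48 when P0 replicate 1 was left out, and the 31 higher regions became 2 without either of these, 10 without E14.5 replicate 1 and 92 without E14.5 replicate 2. The regions were counted here and not tested as a set.

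Of the 4 classes of distal regions, the one with both a Meis and a Fox name had the largest share of losses. With Fox, 54 of 648 regions were lower (8.33%) and 9 were higher (1.39%). Without Fox, 66 of 1343 were lower (4.91%) and 22 were higher (1.64%). Distal regions with a Fox and no Meis name gave 427 lower of 6335 (6.74%) and 131 higher (2.07%), and those with neither name 668 lower of 21100 (3.17%) and 562 higher (2.66%). The median log2 difference was -0.01 with Fox, 0.11 without Fox, 0.05 with Fox and no Meis and 0.12 with neither. The classes differed in length, with a median of 1881 bases with Fox, 1636 without Fox and 1404 with neither name. Within 500 to 2000 bases the lower shares were 11.3% (41 of 364) with Fox, 5.87% (56 of 954) without Fox, 7.33% with Fox and no Meis and 3.50% with neither. The higher shares there were 2.47% with Fox and 1.57% without, the reverse of their order over all lengths. They were 2.31% with Fox and no Meis and 2.88% with neither. Without E14.5 replicate 3 the lower regions were 16 with Fox and 18 without, and they were 23 and 23 without P0 replicate 1. These shares describe the classes, and the differences between them were not tested.

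**Figure D1:**
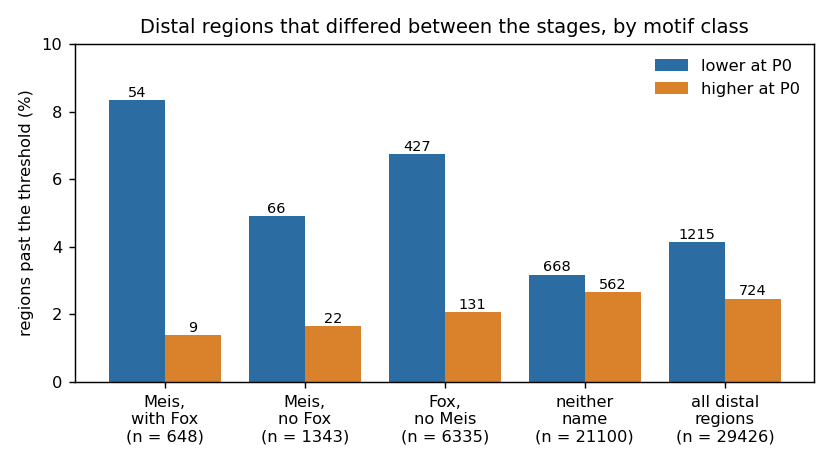
Percentage of distal regions lower (blue) or higher (orange) at P0 than at E14.5 (edgeR adjusted p below 0.05, 3 libraries per stage), by the motif names listed in the region. The number of regions stands above each bar and the class size below it. The lower share is 8.33% for Meis with Fox, 4.91% for Meis without Fox and 3.17% for neither name.

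The same pattern was looked for in each library. Meis regions with Fox held 2.55%, 2.75% and 2.72% of all distal counts in the E14.5 libraries and 2.46%, 2.45% and 2.53% in the P0 libraries, each in replicate order. The mean was 2.67% ± 0.110 (SD, n = 3) at E14.5 and 2.48% ± 0.0436 (SD, n = 3) at P0, and the highest P0 library lay just below the lowest E14.5 library. Meis regions without Fox held 4.92%, 5.11% and 5.00% at E14.5 and 4.95%, 5.11% and 4.97% at P0. Here the stages overlapped, with means of 5.01% ± 0.0941 and 5.01% ± 0.0843 (SD, n = 3 each). Distal regions with Fox and no Meis name held 22.9%, 23.7% and 23.5% at E14.5 and 22.3%, 22.4% and 22.6% at P0, without overlap. Distal regions with neither name held 69.6%, 68.4% and 68.8% at E14.5 and 70.3%, 70.0% and 69.9% at P0. In both classes with a Fox name every P0 library lay below every E14.5 library, in the class with neither name every P0 library lay above, and in the Meis regions without Fox the stages overlapped. The shares sum to the whole, so a class can only lose what others gain. The median CPM of the regions overlapped between the stages in all 4 classes, with 13.8 to 15.4 at E14.5 and 12.9 to 14.8 at P0 for Meis with Fox. With 3 libraries per stage no p was computed.

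**Figure D2:**
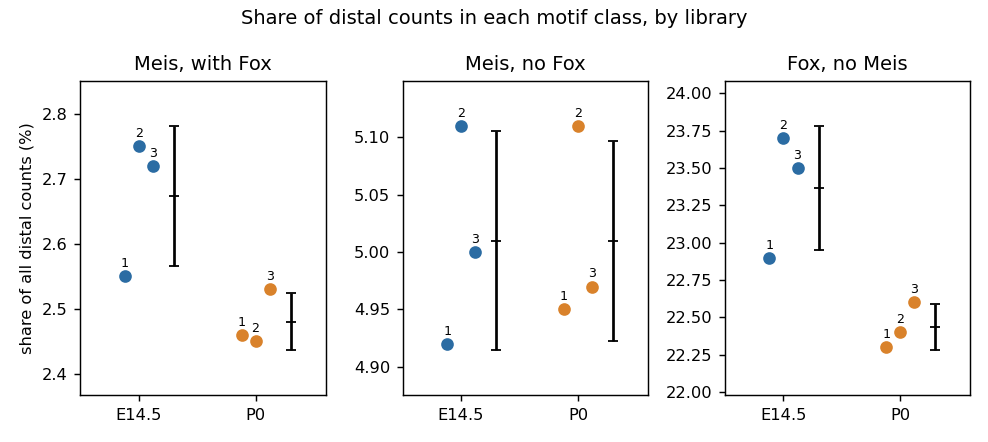
Share of all distal counts (%) in each motif class, 1 point per library with its replicate number, blue for E14.5 and orange for P0. Bars give the mean ± SD of 3 libraries, and the vertical axes do not start at 0 and differ between panels. The stages are apart for Meis with Fox (2.67% against 2.48%) and overlap for Meis without Fox.

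Closeness and number of Fox matches were described in the same way. Where a Fox match overlapped the Meis match, 9 of 84 regions were lower (10.7%) and 3 were higher (3.57%). With a Fox match 0 to 99 bases away, 19 of 202 were lower (9.41%) and 1 was higher (0.495%). With one at 100 bases or more, 26 of 362 were lower (7.18%) and 5 were higher (1.38%). All distal regions gave 4.13% lower and 2.46% higher. The overlapping class rests on 9 lower regions. Without regard to calls, all P0 libraries lay below all E14.5 libraries in 19.0%, 26.7% and 16.6% of these 3 classes, which does not follow closeness. They did so in 12.6% of all distal regions. The median lengths of the 3 classes were 1566, 1755 and 1999 bases, and the differences were not tested. The lower share was 7.66% with 1 Fox name, 8.11% with 2 to 3 and 9.70% with 4 or more, and in distal regions without Meis it was 5.96%, 6.67% and 8.29%.

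The 2 Meis names were counted apart. Of the 1594 regions with Meis1 alone, 104 were lower (6.52%) and 20 were higher (1.25%). Of the 332 with Meis2 alone, 14 were lower (4.22%) and 11 were higher (3.31%). Of the 65 with both, 2 were lower and 0 were higher. All distal regions gave 4.13% lower and 2.46% higher, and the lower share with Meis2 alone was close to that. The difference between the names was not tested. The strength of the match was not ordered with the losses, since regions split into 4 classes by their best Meis score, from weak to strong, gave 6.66%, 4.94%, 7.10% and 5.01% lower.

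Other names in the Meis regions were counted next, on few called regions each. Regions with no name but Meis (720) gave 45 lower (6.25%) and 12 higher, near the figures for all Meis regions. Of the 108 with a Jun or Bach name, members or relatives of the AP-1 factors that mark many activated enhancers, 6 were higher (5.56%) and 7 were lower (6.48%), where all distal regions with such a name gave 2.93% and 4.20%. Of the 382 with a Sox name, 1 was higher (0.262%) and 20 were lower (5.24%), where of all 4451 distal regions with Sox 88 were higher (1.98%) and 196 were lower. Among the 89 Meis regions with a Six2 name, the factor that keeps nephron progenitors undifferentiated, 7 were lower (7.87%) and 1 was higher (1.12%). All 938 distal regions with Six2 gave 1.81% lower and 2.35% higher. E2f names, read by cell cycle factors, gave 1 lower (0.826%) and 3 higher (2.48%) of 121. All distal regions with E2f gave 2.31% lower and 1.88% higher. Smad names, read by the effectors of TGF-beta and BMP signals, gave 6 lower (2.55%) and 2 higher (0.851%) of 235. All distal regions with Smad gave 2.25% lower, close to that share, and 2.18% higher. None of these differences was tested.

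By position, 3 of 139 Meis regions over exons were lower (2.16%) and 2 were higher (1.44%). Elsewhere in genes 42 of 709 were lower (5.92%) and 15 were higher (2.12%). Of 1143 intergenic ones 75 were lower (6.56%) and 14 were higher (1.22%). Among all distal regions the lower shares were 2.60% over exons, 3.52% elsewhere in genes and 4.71% between genes, and the higher shares 2.51%, 2.74% and 2.29%. The lower share of Meis regions was thus above that of all distal regions outside exons and slightly below it over exons, on 3 lower regions. The higher share of Meis regions was below that of all distal regions in each place. These differences were not tested. The lower Meis regions were often far from genes. Outside genes, the median distance to the nearest protein-coding gene was 175 kb for the lower Meis regions, 76.4 kb for the higher ones and 89.0 kb for all Meis regions. Of the lower ones, 21 of 120 (17.5%) were over 500 kb from any protein-coding gene, against 6.33% of all Meis regions. The median was also 175 kb, with 13.4% over 500 kb, for all lower distal regions. Over 500 kb from genes, 14.9% of the Meis regions with Fox, 17.7% of those without Fox and 10.5% of all distal regions were lower. Inside genes, the same shares were 8.17%, 3.94% and 3.30%. The share was larger with Fox than without inside genes and up to 500 kb from them. The order turned beyond 500 kb, where 7 of 47 and 14 of 79 regions were lower, and neither difference was tested.

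**Figure D3:**
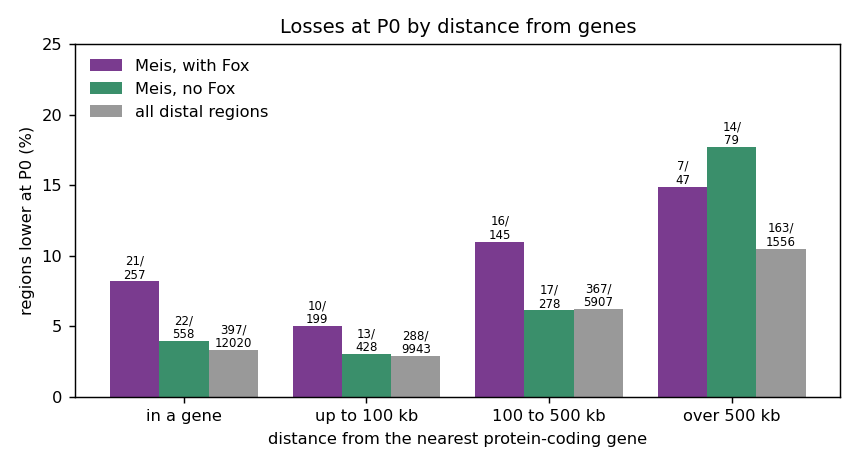
Percentage of regions lower at P0 (edgeR adjusted p below 0.05) by distance from the nearest protein-coding gene of RefSeq, for Meis regions with Fox (purple), Meis regions without Fox (green) and all distal regions (grey). Numbers above the bars give lower regions over all regions. In all 3 sets the share is highest beyond 500 kb (14.9%, 17.7% and 10.5%).

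The 5 largest losses with Fox are given here by the genes they lie in or between, and which gene a region acts on is not known from these data. Those outside genes lay 626 to 1782 kb from the nearest protein-coding gene. Only regions with no overlap of the stages were eligible for these losses and for the largest gains below. The region chr14:81804651-81805953, between Olfm4 and Pcdh17, fell from 13.6, 11.6 and 15.9 CPM at E14.5 to 2.29, 4.39 and 2.29 CPM at P0. This was a 4.71-fold loss (log2 difference -2.24, SE 0.32, edgeR adjusted p = 0.00216). The region carried a Meis2 match overlapped by a Foxc2 match. Between Stim2 and Pcdh7, chr5:55976158-55977262 had 16.8 ± 2.40 CPM (SD, n = 3) at E14.5 and fell to 4.48 ± 1.49 (log2 difference -1.88, SE 0.28, edgeR adjusted p = 0.00252). Between D3Ertd751e and Pcdh10, chr3:43426796-43427306 went from 4.63, 3.07 and 4.09 to 0.625, 1.21 and 0.631 CPM (log2 difference -2.30, SE 0.47, edgeR adjusted p = 0.0127). The call in this short region was lost without E14.5 replicate 1, E14.5 replicate 3 or P0 replicate 1.

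A region 626 kb from Brinp3, chr1:147528316-147529338, with 10 Fox names, fell from 9.73, 12.7 and 22.0 to 2.29, 2.72 and 4.18 CPM (log2 difference -2.24, SE 0.35, edgeR adjusted p = 0.00327). The E14.5 libraries were spread over more than the P0 libraries. Over an exon of Rfx6, a transcription factor of pancreatic endocrine cells, chr10:51720489-51721918 fell from 17.9, 20.6 and 21.7 to 5.83, 3.48 and 6.71 CPM (log2 difference -1.88, SE 0.26, edgeR adjusted p = 0.00190). It also carried names of Foxd3, Sox2 and Sox4.

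Without Fox, the largest loss was inside Dpyd, which encodes the first enzyme of pyrimidine breakdown. The region chr3:118698473-118699928 fell from 15.2, 17.4 and 18.3 to 3.12, 5.30 and 3.24 CPM, a 4.46-fold loss (log2 difference -2.16, SE 0.27, edgeR adjusted p = 0.00123). Inside 2210408I21Rik, chr13:77515476-77516840 fell from 19.2, 18.7 and 24.6 to 5.00, 6.36 and 5.60 CPM (log2 difference -1.89, SE 0.23, edgeR adjusted p = 0.00115). A second Meis region in that gene, chr13:77546418-77549028, overlaps a VISTA element. It was the only called one of 11 Meis regions over VISTA elements (9.09%, where 7.58% of all Meis regions were called). It fell from 33.3, 34.9 and 42.4 to 22.0, 22.2 and 18.3 CPM (log2 difference -0.83, SE 0.19, edgeR adjusted p = 0.0238). That call was lost without E14.5 replicate 3, P0 replicate 1 or P0 replicate 3. The other named losses were beside Tom1l1 and Kif2b (log2 difference -2.07), between Tenm3 and Aga (-1.80) and between Spock3 and Sgo2b (-1.75).

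Some genes or intergenic intervals held more than 1 lost Meis region, and these are named after their values were seen. The interval between Flrt2 and Galc held 3. There were 2 each in 2210408I21Rik and Nell1 and between Cdh8 and Cdh11, D3Ertd751e and Pcdh10, Kcnt2 and Cdc73, and Tmem167 and Atp6ap1l. How many such repeats other distal regions give was not counted.

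Gains were fewer and smaller, with a highest log2 difference of 1.51 where the deepest loss was -2.30. The clearest gain lay between Mettl21e and Gulp1, an adaptor for the engulfment of dying cells. Its region, chr1:44492764-44494463 without Fox, rose from 13.3, 15.6 and 12.7 to 39.9, 35.7 and 31.3 CPM. Every P0 library was over 31 CPM, a 2.56-fold gain (log2 difference 1.36, SE 0.20, edgeR adjusted p = 0.00242). Over an exon of Steap2, a metal reductase, chr5:5673132-5674263 rose from 5.17 ± 0.943 to 14.8 ± 4.70 CPM (SD, n = 3 each; log2 difference 1.51, SE 0.29, edgeR adjusted p = 0.00838). Inside Zdhhc5, a palmitoyltransferase, chr2:84704040-84704900 rose from 3.20, 3.33 and 2.22 to 8.23, 9.08 and 7.66 CPM (log2 difference 1.50, SE 0.31, edgeR adjusted p = 0.0133). These 2 started from low levels, and both calls were lost without E14.5 replicate 3 or P0 replicate 1. Between Tenm3 and Aga, where another Meis region fell, chr8:49792463-49793965 rose (log2 difference 1.43), a call lost without P0 replicate 1. A region in Tbc1d4, a regulator of glucose transporter traffic, rose by 1.24 on that scale, a call lost without E14.5 replicate 1, E14.5 replicate 3 or P0 replicate 1.

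With Fox, the largest gain was beside Lrig1, a membrane protein that restrains EGF receptor signalling. The region chr6:94776697-94777960 rose from 5.58, 4.82 and 3.97 to 15.4, 12.3 and 11.9 CPM, a 2.75-fold gain (log2 difference 1.46, SE 0.26, edgeR adjusted p = 0.00647). Its Meis2 match was overlapped by a Fox match. Between Dclk1 and Nbea, chr3:55557660-55559056 rose from 3.44, 5.25 and 3.97 to 11.3, 12.1 and 11.0 CPM (log2 difference 1.43, SE 0.28, edgeR adjusted p = 0.00949). The P0 libraries were close together. Both calls were lost without E14.5 replicate 3 or P0 replicate 1. Smaller gains lay inside Cdh11, a cadherin of mesenchymal cells (1.15), between Nmbr and Cited2 (1.07) and between A530021J07Rik and Tmc3 (0.93), and each of these calls was lost on leaving out any of 5 of the 6 libraries.

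**Figure D4:**
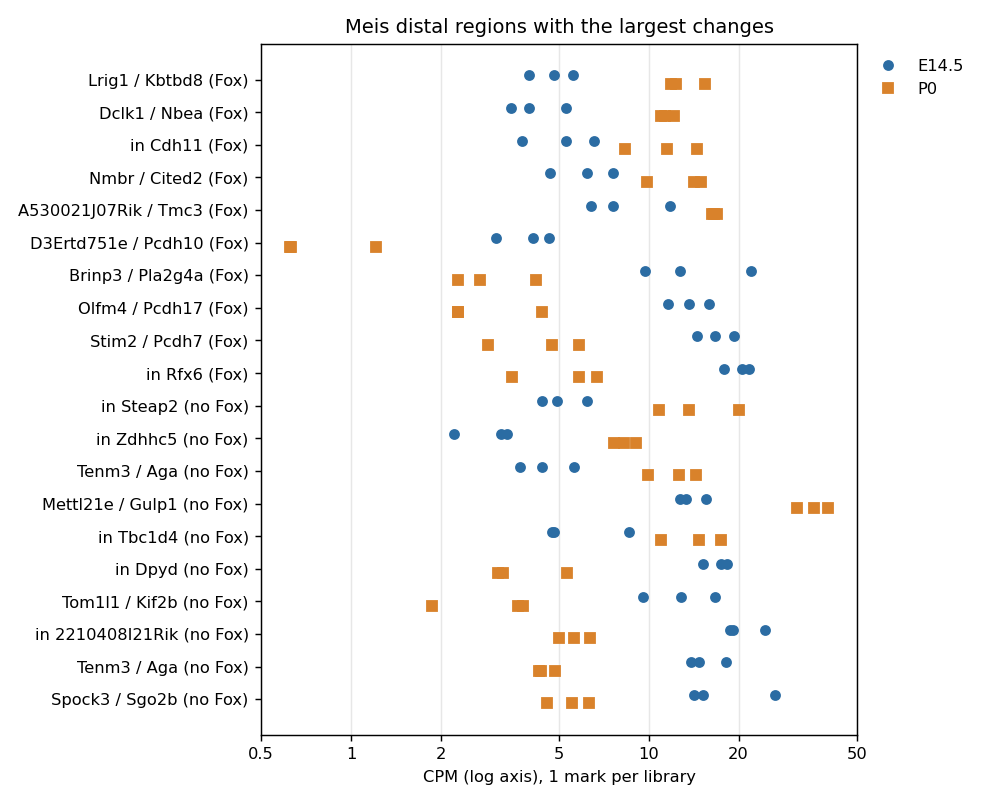
Level in CPM (log axis) of the 5 Meis regions with the largest change in each direction, with and without a Fox name, 1 mark per library (circles E14.5, squares P0). Labels give the gene the region is in or the protein-coding genes on either side. Only regions with no overlap of the stages were eligible, and the losses reach further (to -2.30 in log2) than the gains (to 1.51).

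Regions at genes with known roles in the nephron lineage were looked up next. Over the whole table, 4.57% of regions were Meis regions, 1.79% were higher and 2.94% were lower. Within 10 kb of 30 regulators of the progenitors there were 81 regions of any kind, 4 higher (all at Robo2) and 2 lower (at Eya1 and Itga8), and 4 of the 81 were Meis regions. All 4 Meis regions lay in Robo2, which encodes a receptor for Slit that limits the budding of the ureter. One of them, chr16:74514023-74515381, without Fox, rose from 15.3, 20.8 and 13.4 to 31.0, 25.6 and 31.6 CPM (log2 difference 0.83, SE 0.21, edgeR adjusted p = 0.0362). The table lists this region as intergenic, and the RefSeq span of Robo2 covers it. The other Meis regions in Robo2 had log2 differences of 0.73, -0.02 and -0.40 (edgeR adjusted p = 0.0928, 0.963 and 0.372), and none of these passed. The call was lost without E14.5 replicate 1 or 3, or without P0 replicate 1 or 3.

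At 27 genes of nephron differentiation there were 47 regions, of which 1 rose (Pax8), 1 fell (Cdh4) and 1 was a Meis region. That region, inside the cadherin gene Cdh6, had 2.25, 3.77 and 2.45 CPM at E14.5 and 5.41, 5.45 and 8.05 at P0, and did not pass (log2 difference 1.15, edgeR adjusted p = 0.0769). At 13 genes of developmental timing there were 25 regions, with 0 higher, 2 lower (Igf2bp3 and Lin28b) and 0 Meis regions. At 15 genes of TALE factors and their partners there were 53 regions with 0 called, and the 1 Meis region, over an exon of Meis1 itself, had a log2 difference of 0.20 (edgeR adjusted p = 0.738). At 22 forkhead genes there were 59 regions, with 2 higher (Foxm1 and Foxp1), 1 lower (Foxp2) and 2 Meis regions. Those 2, inside Foxn3 and beside Foxd1, had log2 differences of -0.55 and 0.08 (edgeR adjusted p = 0.411 and 0.883).

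A further look took called Meis regions whose nearest protein-coding gene on either side was a listed gene, whatever the distance, and was made after values were seen. A region 71.9 kb from Itga8, the integrin used for the selection, fell from 17.2, 16.0 and 19.6 to 6.25, 6.51 and 10.1 CPM (chr2:12032769-12034769, log2 difference -1.19, SE 0.25, edgeR adjusted p = 0.0132). Another region, between Eya1, a partner of Six2 needed for kidney formation, and Msc, lay 405 kb from Eya1 and 36.4 kb from Msc. It rose from 15.8, 20.8 and 13.5 to 29.5, 29.1 and 31.0 CPM (chr1:14715660-14716967, log2 difference 0.83, SE 0.20, edgeR adjusted p = 0.0291). In both, the stages did not overlap, as in all 151 called Meis regions. Both calls were lost without E14.5 replicate 3 or P0 replicate 1, and that between Eya1 and Msc also without E14.5 replicate 1 or P0 replicate 3.

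Among genes of the stroma, the region 584 kb from Nr2f1 fell from 31.1 ± 3.88 to 12.2 ± 2.02 CPM (chr13:78783023-78784792, SD, n = 3 per stage, log2 difference -1.36, SE 0.20, edgeR adjusted p = 0.00285). On the sides of Tbx18, a T-box factor of the stroma and the mesenchyme around the ureter, 1 region fell by 1.03 and 1 rose by 1.10 on the log2 scale (edgeR adjusted p = 0.0205 and 0.0318). A region with Fox 164 kb from Meis1 rose from 7.33 ± 1.07 to 13.5 ± 0.691 CPM (chr11:18715212-18716764, SD, n = 3 each, log2 difference 0.88, SE 0.24, edgeR adjusted p = 0.0451). Of these, only the call beside Nr2f1 held without each single library, and that beside Meis1 was lost without any library but E14.5 replicate 2.

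A region with Fox between Pax1 and Foxa2, a forkhead factor of the endoderm, lay 234 kb from Pax1 and 432 kb from Foxa2. It fell from 20.2, 18.9 and 22.9 to 9.37, 9.99 and 8.53 CPM (chr2:147609100-147611343, log2 difference -1.16, SE 0.21, edgeR adjusted p = 0.00658). Inside Gli2, a transcription factor of the Hedgehog pathway, a region with Fox 173 kb from Tfcp2l1 fell from 10.9, 5.96 and 6.89 to 1.87, 3.18 and 2.05 CPM (chr1:118857877-118858400, log2 difference -1.76, SE 0.36, edgeR adjusted p = 0.0132). A region inside Bean1, 46.5 kb from the endothelial cadherin gene Cdh5, fell by 0.94 on the log2 scale (edgeR adjusted p = 0.0396). The calls between Pax1 and Foxa2, in Gli2 and in Bean1 were all lost without E14.5 replicate 3. The last 2 were also lost without E14.5 replicate 1 or P0 replicate 1, and that in Bean1 also without P0 replicate 2 or with total-count scaling.

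**Figure D5:**
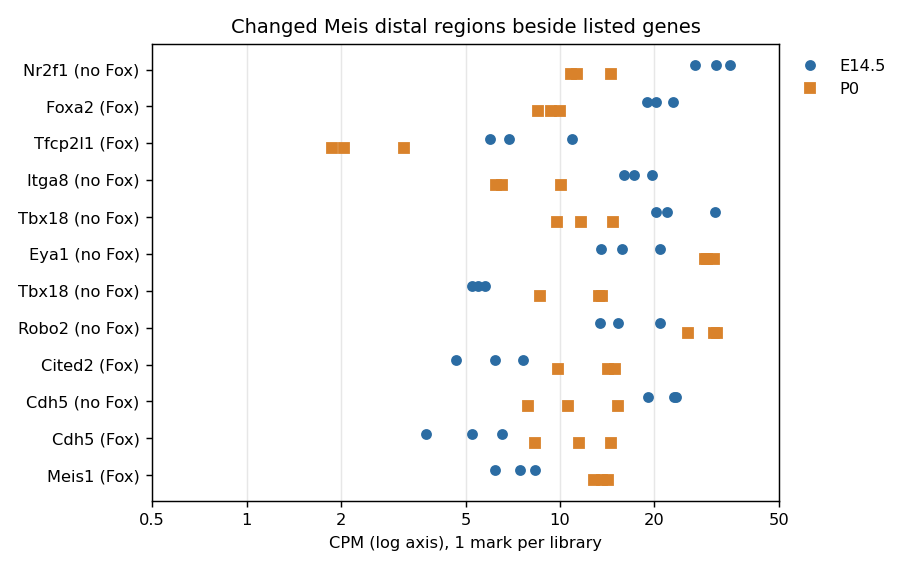
Level in CPM (log axis) of the 12 called Meis regions that have a listed gene as host or as the nearest protein-coding gene on a side, 1 mark per library (circles E14.5, squares P0). The row label is the listed gene, which can be over 1 Mb away. The regions labelled Nr2f1, Foxa2, Tfcp2l1 and Itga8 fell and those labelled Eya1, Robo2, Cited2 and Meis1 rose.

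The 3 Meis regions with the highest CPM, which is not scaled to length, did not pass the test. Near Ly6c1 and Ly6c2, chr15:75085507-75087040 had 697, 216 and 598 CPM at E14.5 and 447, 927 and 342 CPM at P0 (log2 difference 0.18, edgeR adjusted p = 0.861). The lowest value of each stage came from E14.5 replicate 2 and P0 replicate 3, the deepest libraries. The next highest lay on chr8:20328339-20332377 and chr8:20510765-20515380, on either side of Gm15319, with the same libraries lowest (log2 differences 0.06 and 0.00, edgeR adjusted p = 0.946 and 0.999). Ly6c1 and Ly6c2 are closely similar genes, and how reads that match more than 1 place were counted is not given in the sources used here. Of other annotations, 151 Meis regions (7.58%) overlapped a FANTOM enhancer, against 8.64% of all distal regions. Of these 151, 6 were lower (3.97%) and 1 was higher (0.662%). All Meis regions gave 6.03% lower and 1.56% higher, and all distal regions 4.13% and 2.46%. The FANTOM column is labelled for the older build mm9, and how it was placed on the counted regions is not given in the sources used here.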

How the data were processed

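ATAC-seq counts were analysed for 3 libraries at E14.5 and 3 at P0. Per the labels' protocols, kidneys of a litter (up to 24) were digested for 15 minutes at 37 °C, and 50000 bead-selected cells were lysed for 10 minutes and transposed. The authors deposited a table of whole-number counts per region and library, per the file headers, with motif names, a score for each match, and match positions and region widths as other values. The build is mm10, per the submitters' processing notes. The aligner, peak caller, counting rule, treatment of duplicates, Tn5 shift, motif set and promoter window are not given in the sources used here, and their effect on the counts was not assessed.

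Of 45489 rows, 1966 repeated a region and 43523 distinct regions were kept. Counts were fitted with edgeR 4.0.16 (R 4.3.3) after TMM scaling and filterByExpr (0 regions removed), with only the stage in the model. The quasi-likelihood F test was adjusted over all regions. CPM use TMM-scaled totals, and an SE is the log2 difference divided by the root of F. The biological coefficient of variation was 0.211. On simulated counts for 43523 regions with 200 changed 2-fold, the fit called 63 of these and 5 unchanged ones, so a region that misses the threshold is not shown to be unchanged. Replicates are separate litters, and same-numbered libraries did not deviate together (correlations 0.067, -0.14 and 0.077).

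Named regions were, per class and direction, the 5 with the largest change among those past 0.05 with no overlap of stages, those past 0.05 within 10 kb of a listed gene, and the 3 with the highest mean CPM. Members, gene lists and rules were chosen with earlier results of these data known. Positions are 1-based, and sequences and gene neighbours came from RefSeq. A match was taken to cover the region start plus its listed position through that plus its listed width, as checked on the promoter windows. Alternatives were DESeq2 1.42.0 (size factors, Wald test), limma-voom 3.58.1, other scalings, filters, region sets and thresholds, a replicate block, and leaving out each library.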

Additional observations from a re-analysis of the deposited data

How the results depend on the processing

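Some orders of the shares held under every alternative that changed them. The share of Meis regions that was lower stayed above that of all distal regions (18 alternatives). The share that was higher stayed below that of all distal regions (18). A larger share was lower with Fox than without (19). The order of the higher shares with and without Fox did not always hold. It turned under DESeq2's Wald test (2.78% with Fox, 2.46% without), the replicate block (1.54% and 1.27%) and within 500 to 2000 bases (2.47% and 1.57%). It also turned on autosomes only and at a threshold of 0.01, and was kept in the other alternatives. Of the 21 run, dropping the filter on low counts restored 0 regions and leaving out Pbx, Pknox or Tgif names removed 0, so these could change nothing. The size of the counts did not hold. Leaving out 1 library moved the Meis regions past the threshold from 151 to between 36 (without E14.5 replicate 3) and 210 (without E14.5 replicate 2); they numbered 48 without P0 replicate 1. Lower regions ranged from 34 to 127, higher ones from 2 to 92, and the higher share of called ones from 4.17% to 43.8%. With Fox the ranges were 16 to 57 lower and 0 to 26 higher, and without Fox 18 to 70 lower and 2 to 66 higher. Fewer libraries were fitted there, and why the libraries differ was not tested. With 2 libraries in a stage, they are assumed to vary like those of the other stage.

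A threshold of 0.01 left 53 (4 higher and 49 lower; 24 lower and 2 higher with Fox, 25 lower and 2 higher without; 7.55% higher), and 0.1 gave 246 (83 higher, 26 of them with Fox and 57 without; 33.7% higher). DESeq2's Wald test gave 51 higher, 18 of them with Fox, and the cause was not tested. Asking for at least 2 Fox names left 34 lower and 5 higher with Fox, in fewer regions. With the replicate number as a block, 147 passed (27 higher and 120 lower), and 134 of them also passed without it. In single regions, the block ended the calls in Robo2, in Cdh11, beside Meis1 and for the gain beside Tbx18; limma-voom ended those beside Meis1, between Nmbr and Cited2 and for the gain beside Tbx18; and total-count scaling ended that in Bean1.

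Of the 20 regions with the largest changes within their class and direction, 9 of the 10 losses passed in every fit. The exception, between D3Ertd751e and Pcdh10, failed without E14.5 replicate 1, E14.5 replicate 3 or P0 replicate 1. Of the gains, only that beside Gulp1 always passed. The highest edgeR, DESeq2 or limma adjusted p over 15 other fits was 0.222 in Robo2 and 0.192 between Eya1 and Msc. For the regions beside Meis1, Itga8 and Nr2f1 the highest edgeR, DESeq2 or limma adjusted p was 0.218, 0.0949 and 0.0283.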
